A study of Homo sapiens with 8 samples.

Results

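The transcripts described here are those that moved the same way when either form of METTL3, active or catalytically dead, was put back into LNCaP cells depleted of it. LNCaP is a human prostate adenocarcinoma line that responds to androgen. The 4 rescue libraries were set against the 2 knockdown libraries, 6 of the 8 libraries of the study, and the rule asked for a change in each rescue on its own. A gene was taken to have risen or fallen with both rescues when edgeR's quasi-likelihood test with Benjamini-Hochberg adjustment gave an adjusted p under 0.05 in the same direction for the wild-type rescue and for the mutant rescue. It had to do so both as counted and after a trend with gene length was removed. Of 15289 genes with enough counts to test, 726 rose (4.75%) and 908 fell (5.94%).

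METTL3 writes N6-methyladenosine (m6A) on messenger RNA, with METTL14 as its partner in the writer complex. Proteins with a YTH domain bind the mark and affect the splicing, translation and decay of the transcripts that carry it. A catalytically dead METTL3 keeps the protein but not the methyl transfer, so a line with it stands beside the wild-type rescue as the control for enzymatic activity.

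All lines were stable LNCaP lines made with lentivirus, selected with puromycin at 1 µg/ml and grown in the same medium. The knockdown carried a hairpin against METTL3 with a vector whose contents the titles do not give. The wild-type rescue carried METTL3 hairpins with a METTL3 that they do not target, and the mutant rescue the same with a catalytically dead form. The control line carried a control hairpin with a vector and is given only for reference. Each group held 2 libraries. The labels do not say whether these were separate cultures, so p-values measure only the spread between these libraries, which may be technical. Each rescue is 1 line, so what a line owes to its METTL3 and what it owes to its own history cannot be told apart. Both rescues were compared with the same 2 knockdown libraries, so a deviation of those libraries enters both comparisons.

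METTL3 itself was the check on the lines. It stood at 26.2 and 31.3 CPM (read counts scaled for library size and composition) in the knockdown, 309 and 325 in the wild-type rescue and 333 and 334 in the mutant rescue, against 68.4 and 68.5 in the control. Both rescues were thus above the control line as well as above the knockdown. The log2 fold change over the knockdown was 3.47 (SE 0.04) with the wild-type form and 3.54 (SE 0.04) with the mutant. Reads of the introduced copies and of the cell's own gene fall on the same row and cannot be told apart.

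The libraries held 15200343 to 17893241 counts. Both libraries of a group differed by little more than sampling noise, with a chi-square per degree of freedom of 1.22 to 1.37, and the biological coefficient of variation was 1.40%. Prostate lineage genes summed to 9414 to 11653 CPM over the 8 libraries. Of 24 markers of stromal, immune, basal or other cultured cells, 18 had enough counts to test, and only COL1A1 rose with both rescues (0.15 and 0.26), a call lost without knockdown replicate 1. The summed level of the 24 markers, by the same unscaled measure, was 221 in both knockdown libraries and 277 and 234 with the wild-type form. It was 254 and 255 with the mutant and 215 to 216 in the control, and COL1A2 was at 0 in all. The median log2 change of the 18 was 0.54 with the wild-type form and 0.16 with the mutant. Wild-type rescue replicate 1 stood apart from the other libraries in several of them. In raw counts it held 77 for S100A6 against 6 to 17 in the others, 38 for GSTP1 against 4 to 10, 27 for AXL against 3 to 12 and 163 for BASP1 against 25 to 41. Without it 555 genes rose and 722 fell with both rescues, 492 and 676 of them among the 726 and 908. The part of these markers in the shared changes was not tested. Where a call was lost when 1 library was left out, K1 and K2 stand for replicates 1 and 2 of the knockdown, W1 and W2 for those of the wild-type rescue and M1 and M2 for those of the mutant rescue.

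Taken singly, the wild-type rescue changed 3673 genes against the knockdown (24% of those tested), 1652 higher (10.8%) and 2021 lower (13.2%). The mutant rescue changed 7909 (51.7%), 3964 higher (25.9%) and 3945 lower (25.8%). With the 4 rescue libraries as one group, 6699 changed (43.8%), 3286 higher (21.5%) and 3413 lower (22.3%). Among the 726 genes that rose with both, the median log2 change was 0.20 with the wild-type form and 0.37 with the mutant, where the median of all tested genes was at most 0.01 from 0. Among the 908 that fell, the medians were -0.24 and -0.38. Most of these shared changes were small. Only 31 genes rose (0.203%) and 49 fell (0.32%) by at least 0.5 on the log2 scale in both rescues and both fits. In 721 of the 726 and 905 of the 908, all 4 rescue libraries lay on one side of both knockdown libraries, which was so for 39.7% of all tested genes (20% above and 19.8% below the knockdown). The rule picked the genes on these same libraries, so the separation follows largely from the choice and is no separate support. The rule has a sharp edge. SNX30, a sorting nexin, was just inside it, with changes of -0.30 and -0.30 and a largest adjusted p of 0.0499 by edgeR's test. GCLM, the regulatory subunit of the enzyme that starts glutathione synthesis, was just outside at 0.05, with 0.14 and 0.42.

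**Figure D1:**
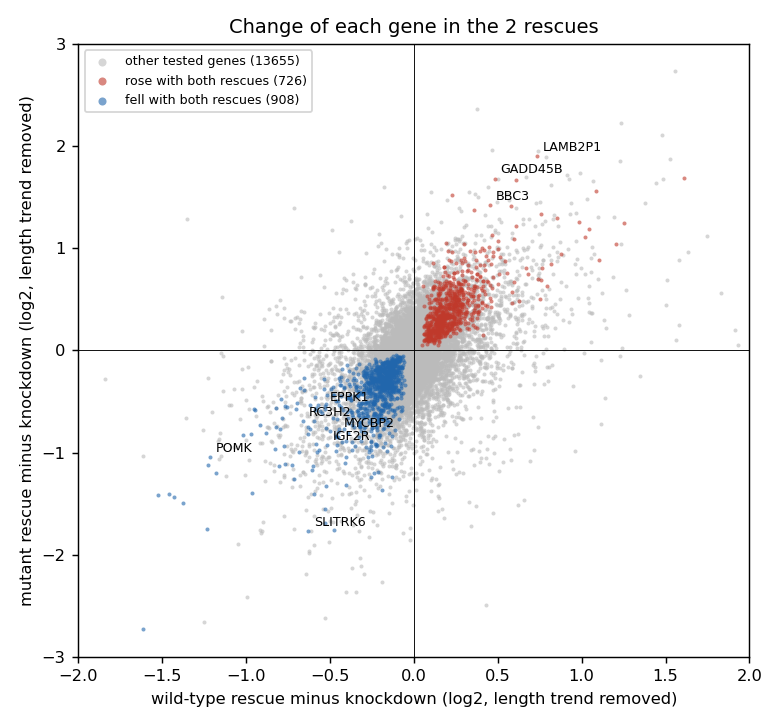
Log2 change over the knockdown in the wild-type rescue (horizontal) and the mutant rescue (vertical) for 15289 tested genes, with the length trend removed; red points rose (726) and blue points fell (908) with both rescues. METTL3 and 3 further genes lie outside the axes, and most coloured points lie farther from 0 on the vertical than on the horizontal axis.

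Gene length moved with both comparisons. Across 15289 genes, Spearman's rho between the change and the gene length in the deposited table was -0.346 for the wild-type form and -0.179 for the mutant, as a description across genes that share libraries. Genes under 1000 bases had a median log2 change of 0.12 in either rescue, and those over 8000 bases one of -0.12 and -0.13. After a smooth curve of each library over log2 gene length was taken out, rho was -0.00341 and -0.00385, and the medians of all 6 length classes lay within 0.01 of 0. The rule needs a gene to pass in both forms, and 1280 rises and 1488 falls without the length fit became 726 and 908 with it. The rule also asks for the change as counted, so length has a part in which genes can be called. The genes that fell were longer, with a median length of 4678.5 bases against 3267.5 for those that rose and 3194 for all tested genes. Of genes over 8000 bases 13.7% fell and 4.13% rose, and of genes under 1000 bases 0.667% fell and 2.29% rose.

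Base composition moved with the shared changes as well. In the 14417 genes matched by symbol to GENCODE 29, the transcripts that rose had a median GC content of 57.4%, those that fell 46.4%, and all tested genes 49.3%. Of transcripts above 60% GC, 10.9% rose and 2% fell, while of those under 40% GC 2.73% rose and 6.84% fell. Spearman's rho with GC content, after the length trend was removed, was 0.117 for the wild-type form and 0.237 for the mutant. Transcripts that rose had a median of 9 exons, those that fell 15, and all tested genes 8. The letters GGACT, the commonest form of the motif that METTL3 methylates, came a median of 1.03 times per kilobase in transcripts that rose, 0.89 in those that fell and 0.93 in all. When a GC curve was removed along with the length curve, an alternative chosen after seeing the data, 620 genes rose (566 of them among the 726) and 855 fell (803 among the 908). The part of length and GC content in the shared changes was not tested further.

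**Figure D2:**
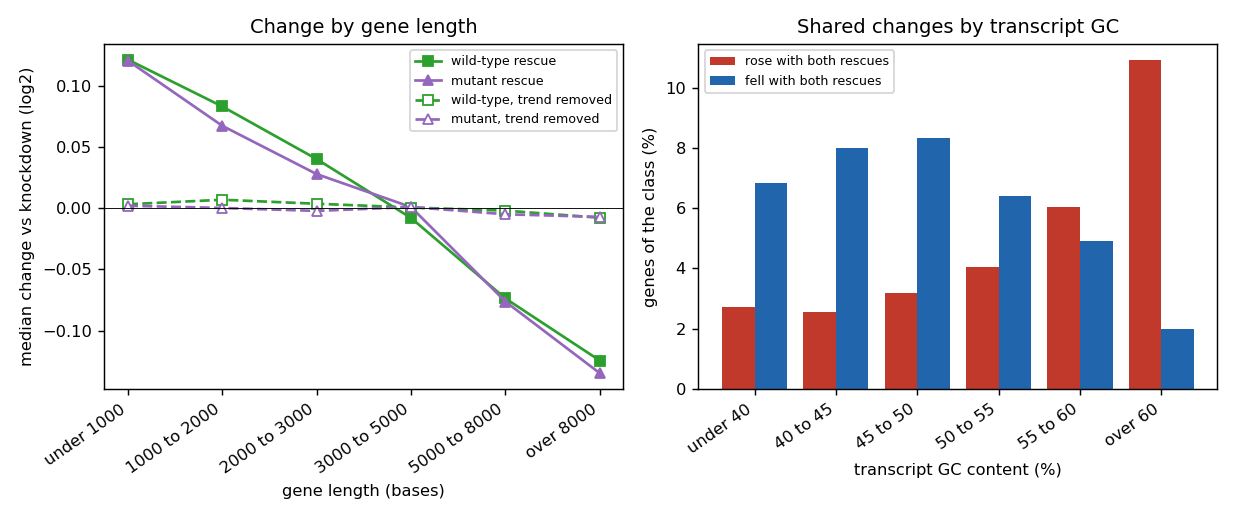
Left, median log2 change over the knockdown by class of gene length in the wild-type rescue (squares) and the mutant rescue (triangles), before (filled) and after (open) the length trend was removed. Right, share of genes in each class of transcript GC content that rose (red) or fell (blue) with both rescues; from under 40% to over 60% GC the share that rose went from 2.73% to 10.9%.

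GADD45B was one of the 14 largest rises after METTL3, ranked by the smaller of the 2 changes. It encodes a stress-induced protein that binds MAP kinase kinases, and is induced by p53 and by NF-kappaB. Its level was 24.03 and 25.04 CPM in the knockdown, 35.8 and 36.9 in the wild-type rescue and 81.6 and 83.5 in the mutant rescue. The knockdown, the wild-type rescue and the mutant rescue did not overlap one another, and the wild-type rescue was at the level of the control line (36.6 and 36.6). The log2 fold change was 0.57 (SE 0.07, edgeR adjusted p = 4.11e-13) with the active form and 1.75 (SE 0.06, edgeR adjusted p = 1.21e-66) with the dead one. PLA2G2A, a secreted phospholipase, went from 29.1 and 26.2 CPM to 39.8 and 41.1 and 53.3 and 55.5, changes of 0.55 (SE 0.06) and 0.97 (SE 0.06). Here the knockdown was lowest in every library, the mutant rescue highest, and the control (34.7 and 34.8) lay between knockdown and wild-type rescue.

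NRM, an inner nuclear membrane protein, rose by nearly the same amount with both forms. It read 14.2 and 13.6 CPM in the knockdown, 21.4 and 19.3 in the wild-type rescue and 22.4 and 20.3 in the mutant rescue, changes of 0.55 (SE 0.09) and 0.62 (SE 0.09). The rescues overlapped each other but not the knockdown. SNAI1, a repressor of E-cadherin that acts in epithelial to mesenchymal transition, showed a like pattern at lower counts. It stood at 5.75 and 6.10 CPM in the knockdown, 8.96 and 8.07 with the wild-type form, 10.3 and 8.88 with the mutant and 8.66 and 9.07 in the control. The changes were 0.52 (SE 0.14) and 0.69 (SE 0.14), and the call was lost without knockdown replicate 1 or wild-type rescue replicate 1.

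The other large rises were in genes of few counts. DRD4, a dopamine receptor, went from 3.33 and 3.05 CPM to 5.67 and 4.75 with the wild-type form and 10.8 and 10.7 with the mutant. PBX4, a homeobox factor, went from 4.80 and 3.49 to 5.74 and 7.51 and 10.5 and 9.69, and TBX6, a T-box factor, from 5.53 and 5.53 to 8.70 and 7.85 and 10.9 and 10.8. PPP1R32, a regulatory subunit of protein phosphatase, read 3.61 and 4.45 in the knockdown, 6.45 and 6.19 and 11.9 and 10.4 in the rescues. In these genes the knockdown, the wild-type rescue and the mutant rescue formed 3 steps without overlap. MSS51, tied to mitochondria in muscle, and the transmembrane protein CLPTM1 rose by 0.63 and 0.53 with the wild-type form and by 1.12 and 0.67 with the mutant. BRICD5 rose by 0.66 and 0.85, and CMC4, a mitochondrial protein whose gene shares its locus with MTCP1, by 0.69 and 0.67. LAMB2P1 (0.81 and 1.97) and HSD17B7P2 (0.59 and 1.06) carry the symbols of pseudogenes, and GENCODE 29 lists the second as one, so their reads may be shared with the genes they resemble and are uncertain. Of these 10 genes, 9 lost the joint call when at least 1 knockdown or wild-type rescue library was left out, and LAMB2P1 was the one that did not. DESeq2 gave no adjusted p to any of the 10, LAMB2P1 included, or to SNAI1, while GADD45B, NRM and PLA2G2A kept their call with it. PPP1R32 lost it without K1, TBX6 without W1, DRD4 and CMC4 without K2 or W1, and PBX4 without K2 or W2. BRICD5, MSS51 and CLPTM1 lost it without K1 or W1, and HSD17B7P2 without K1, K2 or W2.

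**Figure D3:**
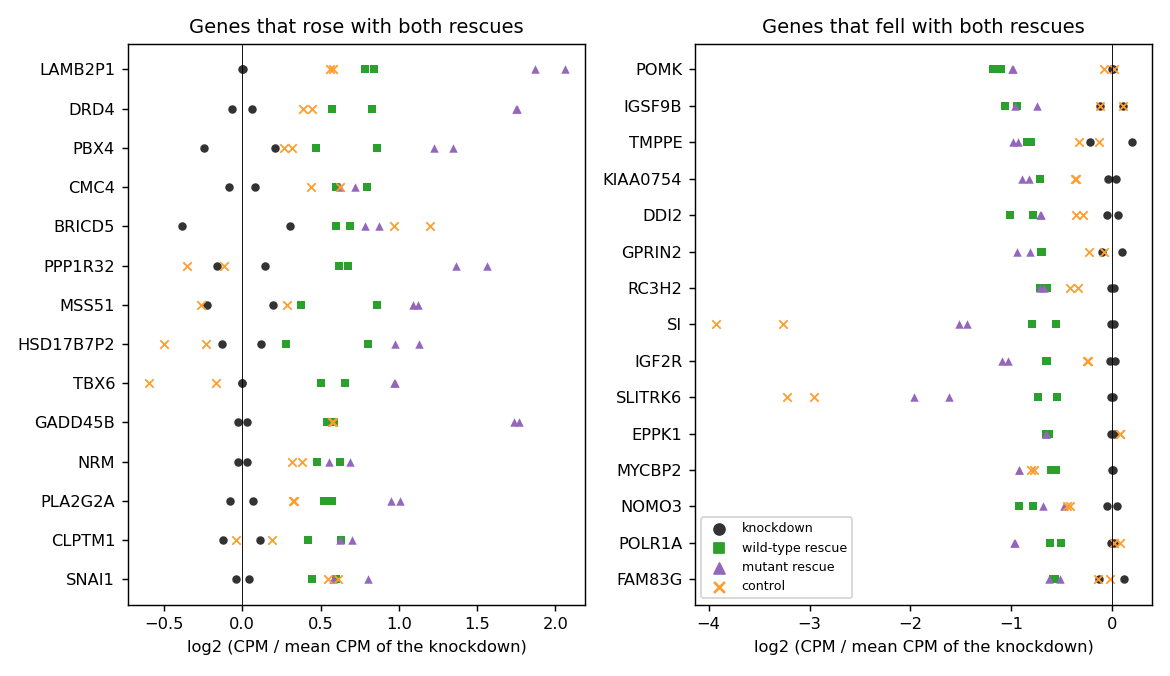
Log2 of each library's CPM over the mean CPM of the knockdown for the named genes that rose (left, METTL3 not drawn) and fell (right); each point is 1 library. The genes were chosen to have all 4 rescue libraries on one side of both knockdown libraries, and the control line (crosses), which played no part in the choice, lies above the knockdown in some and at or below it in others.

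The 15 named falls included several well-expressed genes, and all 15 kept their call when any 1 library was left out. DESeq2 gave no adjusted p to POMK, IGSF9B, TMPPE, KIAA0754, DDI2, GPRIN2, SI, SLITRK6 and NOMO3, and called the others. POMK, the kinase that phosphorylates the sugar chain of dystroglycan, fell with both forms. It stood at 14.6 and 14.7 CPM in the knockdown, 6.83 and 6.46 in the wild-type rescue and 7.34 and 7.43 in the mutant rescue, changes of -1.14 (SE 0.12, edgeR adjusted p = 6.67e-16) and -0.99 (SE 0.12, edgeR adjusted p = 1.62e-13). The control (13.8 and 14.9) was at the level of the knockdown, so only the lines with an introduced METTL3 were low. EPPK1, a cytolinker that binds keratin filaments, was likewise lower in all 4 rescue libraries than in the knockdown or the control. Its level was 237 and 241 CPM in the knockdown, 152 and 155 and 151 and 152 in the rescues and 253 and 252 in the control. The changes were -0.64 (SE 0.03) and -0.66 (SE 0.03). RC3H2, an RNA-binding protein that marks messenger RNAs with certain stem-loops for decay, was highest in the knockdown. It read 72.4 and 74.2 CPM there, 44.5 and 46.9 with the wild-type form, 44.5 and 45.8 with the mutant and 57.9 and 54.9 in the control, changes of -0.68 (SE 0.05) and -0.70 (SE 0.05).

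In these 3 genes the difference between the 2 rescues was not called. The mutant minus wild-type log2 difference was 0.15 (SE 0.14) for POMK, -0.02 (SE 0.03) for EPPK1 and -0.02 (SE 0.06) for RC3H2. A missed threshold does not show that the 2 forms act alike, and for EPPK1 and RC3H2 the difference was no larger than its standard error.

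IGF2R, the receptor that takes up insulin-like growth factor 2 and mannose-6-phosphate proteins, fell in 2 steps. Its level was 512 and 529 CPM in the knockdown, 331 and 333 in the wild-type rescue and 245 and 254 in the mutant rescue, with 437 and 440.2 in the control. The changes were -0.65 (SE 0.02) and -1.06 (SE 0.02), or -0.52 and -0.93 with the length trend removed from this gene of 14042 bases. MYCBP2, a large ubiquitin ligase first found as a MYC-binding protein, went from 574 and 578 CPM to 389.99 and 379 and 302 and 303, and the control (337 and 329) lay below the wild-type rescue. Its changes were -0.58 (SE 0.02) and -0.93 (SE 0.02). POLR1A, the largest subunit of the polymerase that makes ribosomal RNA, went from 77.5 and 79.3 CPM to 54.98 and 51.2 and 40.3 and 39.8, changes of -0.56 (SE 0.05) and -0.97 (SE 0.05). For POLR1A the control (79.5 and 82.7) was at the level of the knockdown, so the 4 libraries with an introduced METTL3 stood apart.

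SI, an intestinal sugar-splitting enzyme, and SLITRK6, a neuronal membrane protein, were scarce in the control line. SI read 1.90 and 1.20 CPM in the control, 18.1 and 18.4 in the knockdown, 10.5 and 12.4 in the wild-type rescue and 6.35 and 6.74 in the mutant rescue. SLITRK6 read 1.90 and 1.57, 14.8 and 14.6, 10.1 and 8.84 and 3.77 and 4.78 in the same order. Both thus fell part of the way towards the control, and farther with the dead form (-1.48 and -1.78) than with the active one (-0.66 and -0.65).

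In the remaining named falls the difference between the rescues was not called, which does not show that they moved alike. IGSF9B, an adhesion protein of synapses, read 9.82 and 11.5 CPM in the knockdown, 5.54 and 5.08 in the wild-type rescue and 6.35 and 5.48 in the mutant rescue. GPRIN2, linked to neurite outgrowth, fell by 0.71 and 0.88 on the log2 scale. FAM83G, which binds casein kinase 1, fell by 0.57 in the wild-type and 0.56 in the mutant rescue. DDI2, a protease that activates the proteasome regulator NRF1 (-0.89 and -0.71), shares its locus with RSC1A1, and TMPPE (-0.84 and -0.96) with GLB1. KIAA0754 (-0.71 and -0.86) lies within MACF1, and NOMO3 (-0.84 and -0.57) has near-identical copies. The counts of these 4 are uncertain for that reason. The mutant minus wild-type difference was 0.27 (SE 0.16) for NOMO3, 0.18 (SE 0.12) for DDI2 and -0.17 (SE 0.12) for GPRIN2, each above its standard error.

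The sequence before the start site is shown for 4 of these genes, GADD45B and BBC3 (described below) from the rises and RC3H2 and IGF2R from the falls, because they carry the examples above and below. Each line gives 250 bases up to the start, 5′ to 3′ on the gene's strand, from RefSeq on GRCh38.p14, which is not the build of the deposited counts. GADD45B lies at chr19:2475877-2476126 on the plus strand, BBC3 at chr19:47232668-47232917 on the minus strand, RC3H2 at chr9:122905360-122905609 on the minus strand and IGF2R at chr6:159968832-159969081 on the plus strand. Capitals mark matches on either strand to the GC box GGGCGG, the CCAAT box CCAAT, the TATA box TATAAA and the E box CACGTG. The cyclic AMP element TGACGTCA was searched too and has no match in them.
GADD45B: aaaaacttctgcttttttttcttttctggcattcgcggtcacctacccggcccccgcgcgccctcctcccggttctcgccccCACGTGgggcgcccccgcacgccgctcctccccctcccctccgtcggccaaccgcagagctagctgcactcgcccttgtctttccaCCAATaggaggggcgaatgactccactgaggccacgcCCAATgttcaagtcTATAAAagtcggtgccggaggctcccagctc
BBC3: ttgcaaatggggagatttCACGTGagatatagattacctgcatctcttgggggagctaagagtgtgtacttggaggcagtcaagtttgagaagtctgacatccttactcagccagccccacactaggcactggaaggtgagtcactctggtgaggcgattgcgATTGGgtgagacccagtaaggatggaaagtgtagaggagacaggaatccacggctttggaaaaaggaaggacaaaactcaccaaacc
RC3H2: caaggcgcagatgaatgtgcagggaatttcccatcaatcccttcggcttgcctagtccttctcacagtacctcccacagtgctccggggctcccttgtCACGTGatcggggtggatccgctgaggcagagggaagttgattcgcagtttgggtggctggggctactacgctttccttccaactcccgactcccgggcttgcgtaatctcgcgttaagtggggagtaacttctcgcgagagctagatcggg
IGF2R: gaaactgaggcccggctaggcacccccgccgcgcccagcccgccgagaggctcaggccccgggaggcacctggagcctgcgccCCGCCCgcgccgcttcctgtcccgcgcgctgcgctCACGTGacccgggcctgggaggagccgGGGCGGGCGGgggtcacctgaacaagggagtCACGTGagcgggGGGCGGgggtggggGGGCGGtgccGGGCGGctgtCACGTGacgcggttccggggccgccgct

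The GADD45B window holds 2 CCAAT boxes, a TATA box and an E box, and that of BBC3 a CCAAT box and an E box. RC3H2 has an E box alone, and IGF2R has 6 matches to the GC box, 2 of them overlapping, and 3 E boxes. The 4 were picked for display, and the E box they share was no commoner in the rises as a whole. In windows of 300 bases, from 250 before to 50 after the start, an E box stood in 8.86% of 542 matched genes that rose, 12.2% of 703 that fell, 9.96% of 11109 tested genes and 7.43% of all 27305 RefSeq promoters. A GC box stood in 69.9%, 72.1%, 68.2% and 44.6% of the same sets, and a CCAAT box in 41.3%, 35%, 36.4% and 35.7%. A TATA box stood in 6.27%, 4.41%, 5.85% and 12%, and the cyclic AMP element in 3.69%, 3.56%, 3.12% and 1.98%. Such a match describes letters and not a bound site.

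The lists that follow are ordered by role, and where leaving out 1 library moved a list's count by over 1.5 times the count without it is given. Each count stands beside the 4.75% of all tested genes that rose and the 5.94% that fell. These counts also depended on the test, and with DESeq2 each was the same or lower. Falls went from 17 to 9 in MYC and ribosome biogenesis, 6 to 1 in androgen-repressed and 11 to 4 in interferon-stimulated genes. Rises went from 14 to 6 in splicing factors, 16 to 10 in cytosolic ribosomal proteins and 8 to 5 in p53 targets. They went from 8 to 4 in immediate early genes, 6 to 1 in the respiratory chain and 4 to 0 in NRF2 targets. Unfolded protein response rises stayed at 5. Of 125 genes chosen from the lists by size of change, 53 lost the joint call when at least 1 library was left out, 32 of them without K1, 16 without K2, 27 without W1 and 28 without W2, and 5 without M1 and 5 without M2. With DESeq2, 36 of the 125 lost the joint call, and others such as RSAD2, TNF and UGT2B11 got no adjusted p. The losses given gene by gene below are mainly those from left-out libraries. Among the 36 were UGT2B17, EDEM3, COL1A1, HK2, MAF, TNFRSF10A, RPL37A, MRPL28, MRPS9, NDUFA7, COX6A1, KCNQ1OT1, PER3, DPM2, FGFR1, YTHDF3 and FERMT1. Also among them were FDFT1, WARS, FTL, PRDX1, FTH1, DDX60, HERC6, IER3, NFKBIA, MCM6, MCM7, NPC2, PSMD7, PIK3R1, FZD3, DVL1 and SUFU. The p53 targets were among the lists with the highest share of rises. Of 32 tested, 8 rose and 1 fell, against 4.75% and 5.94% of all genes, and the median change was 0.06 with the wild-type form and 0.26 with the mutant. BBC3, which encodes the death-promoting protein PUMA, went from 28.8 and 32.5 CPM to 44.6 and 42.3 with the wild-type form and 86.1 and 82.4 with the mutant, changes of 0.50 (SE 0.06) and 1.46 (SE 0.05). GDF15, a secreted stress hormone, read 1827 and 1872 CPM in the knockdown, 2254 and 2312 in the wild-type rescue and 3633 and 3497 in the mutant rescue. No group overlapped another in either gene. CDKN1A, the cyclin-dependent kinase inhibitor p21, chosen for the text after its values were seen, went from 442 and 455 to 516 and 530.4 and 958 and 929.8 CPM. TNFRSF10A, a receptor for the death ligand TRAIL, went the other way, by -0.37 and -0.25, a call lost without mutant rescue replicate 2. In BBC3, GDF15 and CDKN1A the wild-type step was thus the smaller one.

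Genes of the immediate early response, transcribed within minutes of a stimulus, held 8 rises and no fall among 31, with medians of 0.09 in the wild-type and 0.26 in the mutant rescue. ZFP36, which destabilises messenger RNAs with AU-rich elements, read 45.98 and 53.2 CPM in the knockdown, 62.6 and 62.99 in the wild-type rescue and 94.6 and 95.2 in the mutant rescue. JUND, a subunit of the factor AP-1, read 269 and 257, 319 and 313 and 548 and 524. IER2 read 71.6 and 74.98, 89.1 and 92.6 and 119 and 102, so all 3 rose in 2 steps. Without knockdown replicate 1 the list had 5 rises. Of 23 clock genes 3 rose (13%), 1 fell (4.35%) and 19 did neither, and the medians were 0.04 and 0.41. PER1, a repressor of the clock, rose by 0.33 (SE 0.04) with the wild-type form and 1.35 (SE 0.04) with the mutant, and DBP, a clock output factor, by 0.40 and 1.02. PER3 rose by 0.21 and 0.66, a call lost without K2 or W2. The 1 fall was lost without any one of the knockdown or wild-type rescue libraries.

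MYC and the genes of ribosome biogenesis gave 17 falls and no rise among 58, with medians of -0.06 in the wild-type rescue, where 20 were lower than in the knockdown, and -0.43 in the mutant, where 45 were. There were 11 falls without wild-type rescue replicate 2. Besides POLR1A, UTP20, a factor in the processing of ribosomal RNA, read 45.6 and 45.6 CPM in the knockdown, 34.9 and 32.8 in the wild-type rescue and 21.6 and 23.6 in the mutant rescue. HEATR1, which acts in transcription of ribosomal DNA, read 82.4 and 85.02, 69.9 and 66.4 and 57.8 and 55.02, and MGA, a partner of MAX that opposes MYC, read 84.6 and 78.9, 65.4 and 63.6 and 62.5 and 59.9. In the first 2 the mutant rescue lay below the wild-type rescue, and in MGA the difference of -0.07 (SE 0.05) was not called. MYC, chosen for the text after its values were seen, went from 328 and 328 CPM to 312 and 313 and 213 and 221, changes of -0.07 (SE 0.02) and -0.59 (SE 0.03). It stood highest in the control, at 512 and 519, so that neither rescue moved it towards that line. HEATR1 lost its call without W2.

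Of 83 genes of cytosolic ribosomal proteins, which are short, 16 rose and none fell, and the median over both rescues of 0.13 became 0.03 once the length trend was removed. RPS19 read 431 and 435 CPM in the knockdown, 493 and 496 in the wild-type rescue and 550.3 and 548 in the mutant rescue, a change with the length trend removed of 0.09 and 0.25. RPL18 (0.09 and 0.15), RPL37A (0.06 and 0.16) and RPL14 (0.08 and 0.09) kept small rises, RPL37A not without K1 or W2 and RPL14 not without W2. The count for this list depended on the length fit, at 55 without it, 34 with gene lengths from GENCODE 29 and 7 without wild-type rescue replicate 2. Mitochondrial ribosomal proteins had 1 rise (MRPL28, 1.3%) and 2 falls (MRPS9 and MRPS27, 2.6%) among 77, both below the shares of all tested genes. There were 10 rises when the length trend was kept and 2 with GENCODE lengths. MRPL28 lost its call without any 1 of the 6 knockdown or rescue libraries and with a replicate block, and 1 fall was left without either wild-type rescue library. The respiratory chain had 6 rises (3 without either knockdown library) and 4 falls among 77. These were 7.79% and 5.19%, against 4.75% and 5.94% of all tested genes. The count of respiratory chain rises was 27 with the length trend kept and 11 with GENCODE lengths. NDUFA7, COX6A1 and UQCRQ, subunits of the chain's complexes, rose by 0.17, 0.12 and 0.14 with the wild-type form and by 0.26, 0.19 and 0.21 with the mutant, length trend removed, while NDUFS1 of complex I fell by 0.19 and 0.35. NDUFA7 lost its call without W1, COX6A1 without K1 or W2 and UQCRQ without K2 or W2.

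**Figure D4:**
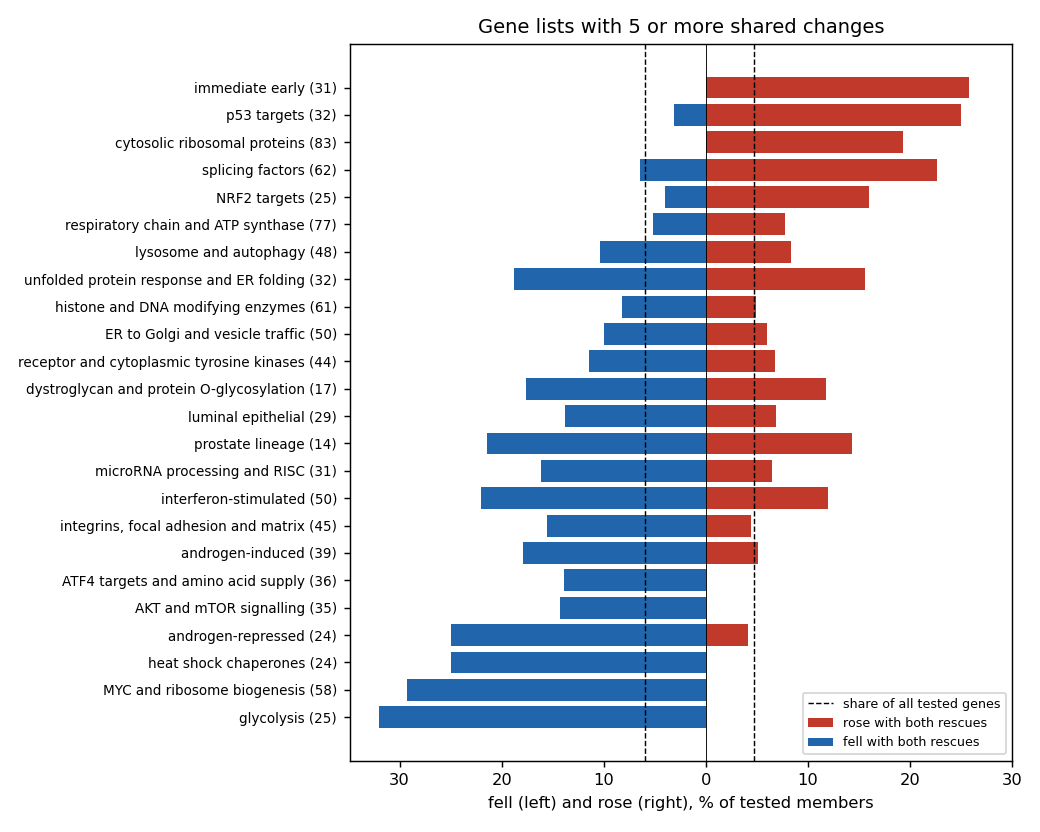
Share of the tested members of each gene list that rose (right, red) or fell (left, blue) with both rescues, for the 24 of 39 lists with 5 or more such members; the number tested stands after each name, and dashed lines mark the share of all tested genes (4.75% and 5.94%). Glycolysis, ribosome biogenesis, heat shock chaperones, AKT and mTOR signalling and ATF4 targets have falls alone. Immediate early genes and cytosolic ribosomal proteins have rises alone.

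Glycolysis had 8 falls and no rise among 25 genes, with medians of -0.05 with the wild-type form and -0.22 with the mutant. ENO1, which makes phosphoenolpyruvate, read 1084 and 1093 CPM in the knockdown, 978 and 976 in the wild-type rescue and 773 and 755 in the mutant rescue. PFKFB3, which makes an activator of phosphofructokinase, read 57.4 and 56.1, 45.7 and 42.2 and 42.5 and 39.5, and its rescues overlapped each other. HK2, a hexokinase, fell by 0.23 and 0.52, and PDK3, a kinase that holds back pyruvate dehydrogenase, fell by 0.29 and 0.41. HK2 lost its call without K2, W1 or W2 and with GC content removed, and PDK3 without K1 or W1. Without knockdown replicate 2 the list had 4 falls. Heat shock chaperones had 6 falls and no rise among 24, with 2 rises without knockdown replicate 2. HSPA8, the constitutive HSP70, read 1122 and 1126 CPM in the knockdown, 842 and 835 with the wild-type form, 593 and 613 with the mutant and 829 and 831 in the control. The wild-type rescue was thus at the level of the control, and the mutant rescue below it. HSPH1 fell by 0.23 and 0.78, STIP1 by 0.13 and 0.39 and HSP90AB1 by 0.10 and 0.24.

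In prostate genes the shared changes went both ways. KLK3, which encodes prostate-specific antigen and is induced by androgen, rose from 2598 and 2636 to 2952 and 3016 and 3105 and 3067 CPM, and KLK4 rose from 185 and 181 to 218 and 220.2 and 247 and 242. Both kallikreins were highest in the control, at 3705 and 3684 and 265 and 268. STEAP2, a metalloreductase, fell by 0.16 and 0.65. In all, androgen-induced genes had 2 rises (5.13%) and 7 falls (17.9%) among 39, HERC3, CHRNA2 and MAF among the falls. Androgen-repressed genes had 1 rise (4.17%) and 6 falls (25%) among 24. UGT2B17, an enzyme that conjugates androgens, read 68.2 and 69.96 CPM in the knockdown, 59.6 and 58.4 with the wild-type form, 36.5 and 40.98 with the mutant and 22.9 and 21.5 in the control. UGT2B11 went from 6.04 and 5.27 to 3.87 and 4.31 and 1.92 and 2.08 CPM, a call lost without K1, W1 or W2. The UGT2B genes resemble one another closely, so reads may be shared between them. Without knockdown replicate 1 or wild-type rescue replicate 2 the androgen-repressed list had 3 falls, and its rise was lost without knockdown replicate 1 or wild-type rescue replicate 1. MAF lost its call without W1 or M2 and STEAP2 without K1 or W2. UGT2B17 and MAF lost the call with DESeq2.

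AGO2 and CNOT1 were among the genes of RNA silencing that fell with both forms. Of 31 genes of microRNA processing and the silencing complex, 5 fell (3 without knockdown replicate 1) and 2 rose (0 without knockdown replicate 2, and 1 without knockdown replicate 1, mutant rescue replicate 1 or either wild-type rescue library). AGO2, the slicing Argonaute, read 46.1 and 46.8 CPM in the knockdown, 32.3 and 28.6 with the wild-type form, 31.3 and 33.4 with the mutant and 41.4 and 41.8 in the control, changes of -0.62 (SE 0.06) and -0.52 (SE 0.06). CNOT1, the scaffold of the deadenylase complex, read 387 and 384, 279 and 274, 305 and 301 and 413 and 414 in the same order. Both were lowest in the 4 rescue libraries. AGO1 fell by 0.33 and 0.49, a call lost without K1. TNRC6B fell by 0.29 and 0.23, and lost its call with a lowess span of 0.7, with GENCODE lengths and with GC content removed too. The other 24 of the 31 did neither, so that 16.1% of the list fell and 6.45% rose. Among 25 genes of the m6A pathway, METTL3 rose (4%) and 2 fell (8%), beside 4.75% and 5.94% of all tested genes. Without single rescue libraries or knockdown replicate 2 the list had up to 3 rises, and it had 1 fall without replicate 1 of either rescue. YTHDF3, a reader of the mark, read 115 and 116 CPM in the knockdown, 98.4 and 96.03 and 101 and 104 in the rescues. Its call was lost with DESeq2, without M1 and with GC content removed along with length. PRRC2A, another reader, read 861 and 857, 748 and 776 and 748 and 723, but its length-corrected change turned positive under a smoother curve (0.07 in the wild-type rescue), and its listed length is among those that differ from GENCODE 29, described below.

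Splicing factors had 14 rises (22.6%) and 4 falls (6.45%) among 62. There were 9 rises without knockdown replicate 1, and 2 falls without knockdown replicate 2 or wild-type rescue replicate 2. LUC7L, a part of the U1 particle, went from 51.2 and 51.8 CPM to 62.1 and 62.7 and 79.9 and 85.4, and SF3A2, of the U2 particle, from 151 and 159 to 180.2 and 187 and 214 and 206. PRPF8 and SNRNP200, the large core proteins of the U5 particle, fell by 0.39 and 0.31 with the wild-type form and by 0.33 and 0.26 with the mutant. Nuclear-retained noncoding RNAs had 3 rises and no fall among 26. MALAT1 read 10399.7 and 10114 CPM in the knockdown, 11826 and 12048 in the wild-type rescue and 13824 and 13855 in the mutant rescue. NEAT1, the RNA that builds paraspeckles, read 3889 and 3865, 4547 and 4444 and 4384 and 4526, and both of its rescues were above the control (3500.2 and 3468). KCNQ1OT1 rose by 0.19 and 0.65. KCNQ1OT1 lost its call without K1 or W2.

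Interferon-stimulated genes split. Of 50, 6 rose (12%) and 11 fell (22%), and the median was 0.01. Among the falls were RSAD2 (-0.60 and -1.16), the RNA-sensing kinase EIF2AK2 (-0.34 and -0.75), the helicase DDX60 (-0.33 and -0.57) and the ligase HERC6 (-0.28 with the active form). The rises included the class I antigen-presenting genes HLA-B, HLA-C and HLA-E, named after their values were seen. HLA-B read 154 and 154 CPM in the knockdown, 183 and 178 in the wild-type rescue and 209.9 and 211 in the mutant rescue. These genes resemble one another, and their counts may share reads. The list had 3 rises without either knockdown library, 4 falls without knockdown replicate 1 and 7 without wild-type rescue replicate 2. In the NF-kappaB list of 25, 3 rose (1 without knockdown replicate 1 or either wild-type rescue library) and 1 fell. Those were 12% and 4% of the list. NFKBIA, the inhibitor of the factor, rose by 0.17 and 0.49, TNF by 0.36 and 0.93 and IER3 by 0.31 and 0.52, and NFKB1, a subunit of the factor, fell by 0.32 and 0.58. EIF2AK2 lost its call without K2, DDX60 and IER3 without K1 or W1, HERC6 without K1 or W2 and NFKBIA without W2. TNF lost it without any 1 of the 4 knockdown or wild-type rescue libraries and with no filter on low counts.

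The listed gene length was itself in doubt for a block of genes on chromosome 6. In 246 of the 14417 matched genes it was more than 2 times the summed exons of the gene in GENCODE 29, and 134 of these lie on chromosome 6. TNF, for one, is listed at 13041 bases, against 1676 in GENCODE 29. Among the genes with such a length were 25 that rose and 6 that fell. With GENCODE lengths, an alternative chosen after seeing the data, 16 of the 25 and all 6 kept their call, HLA-B, HLA-C and NRM among them. TNF, IER3 and HLA-E lost it. Over all genes, 840 rose and 1015 fell under that alternative, with 676 and 820 shared.

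Receptors, growth signalling and matrix gave more falls than rises, as did all tested genes (5.94% and 4.75%). The shares that fell and rose were 11.4% and 6.82% for tyrosine kinases and 14.3% and 0% for AKT and mTOR signalling. For integrin, adhesion and matrix genes they were 15.6% and 4.44%. Of 44 tyrosine kinases 5 fell and 3 rose (1 without knockdown replicate 1 or wild-type rescue replicate 2). EGFR, the epidermal growth factor receptor, read 130.04 and 130.4 CPM in the knockdown, 98.1 and 98.1 with the wild-type form, 89.8 and 89.1 with the mutant and 107 and 105 in the control. FRK, a kinase of the SRC family, read 11.3 and 9.53, 5.03 and 5.97, 7.15 and 7.05 and 5.05 and 5.79 in the same order, and both genes were highest in the knockdown. YES1 fell by 0.17 with either form, and FGFR1 rose by 0.21 and 0.38. AKT and mTOR signalling had 5 falls and no rise among 35, with 3 falls without knockdown replicate 2 or wild-type rescue replicate 1 and 8 without wild-type rescue replicate 2. MTOR, the kinase itself, read 146 and 149 CPM, 112 and 122 and 123 and 117, with 202 and 194 in the control, so that both rescues lay farther from the control than the knockdown did. PIK3R1 and PIK3R3, regulatory subunits of phosphoinositide 3-kinase, fell by 0.29 and 0.28 with the wild-type form and by 0.41 and 0.26 with the mutant, and EIF4EBP2 by 0.24 and 0.33. FGFR1 lost its call without W2 and PIK3R1 without K2 or W1.

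Of 45 integrin, adhesion and matrix genes 7 fell (4 without knockdown replicate 2) and 2 rose (0 without knockdown replicate 1 and 1 without wild-type rescue replicate 2). DAG1, which encodes dystroglycan, the substrate of the pathway in which POMK acts, read 265 and 258 CPM in the knockdown, 209.8 and 214 and 203 and 195 in the rescues and 269 and 256 in the control. In the list of 17 dystroglycan and O-glycosylation genes, POMK and DAG1 were among 3 that fell, and DPM2 (0.29 and 0.27) and POMT1 rose. Its rises went to 0 without wild-type rescue replicate 1 and to 1 without either knockdown library or mutant rescue replicate 1. TLN1, the talin that links integrins to actin, fell by 0.27 and 0.30, FERMT1 by 0.30 and 1.07 and TNS3 by 0.57 and 0.96. FERMT1 and TNS3 each lost the call without any 1 of the 4 knockdown or wild-type rescue libraries, FERMT1 also with DESeq2, with no filter on low counts and with GC content removed. DPM2 lost it without K1, W1 or M1 and with GC content removed. In the luminal epithelial list of 29, the factors ELF3 (0.24 and 0.73) and GATA2 (0.12 and 0.37) rose, and EHF (-0.22 and -0.16) and ESRP2 (-0.18 and -0.37) were among 4 that fell.

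Of 61 histone and DNA modifying enzymes 3 rose (1 without knockdown replicate 1 and 0 without wild-type rescue replicate 2) and 5 fell. Those shares were 4.92% and 8.2%, against 4.75% and 5.94% of all tested genes. NSD1, a histone methyltransferase, read 205 and 198 CPM in the knockdown, 147 and 147 with the wild-type form, 133 and 142 with the mutant and 203 and 206 in the control. SETD7, another, fell by 0.31 and 0.74, TET3 by 0.37 and 0.48 and the acetyltransferase CREBBP by 0.35 and 0.36. The WNT list of 34 had 2 falls (5.88%), FZD3 (-0.32 and -0.90) and CTNNB1 (-0.15 and -0.27), and 1 rise (2.94%), DVL1 (0.09 and 0.13). The hedgehog list of 36 had a rise in GLI2 (0.77 and 1.21, at 1.58 and 1.59 CPM in the knockdown) and a fall in SUFU (-0.23 and -0.17), the inhibitor of GLI factors. Each was 2.78% of that list. The calls of these 2 lists were not stable to the libraries used. Of the WNT list, 0 to 2 rises and 1 or 2 falls were left when 1 library was dropped, and the rise was lost even without a control library. The hedgehog list was left with 0 rises without either knockdown library or wild-type rescue replicate 2, 2 rises without wild-type rescue replicate 1, and no fall without knockdown replicate 2, wild-type rescue replicate 2 or mutant rescue replicate 1. DVL1 did not keep its direction once GC content was removed too. FZD3 lost its call without K1, W1 or W2, and CTNNB1 with GENCODE lengths.

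Metabolic supply lists moved in part, where 4.75% of all tested genes rose and 5.94% fell. The shares that rose and fell were 0% and 13.9% for amino acid supply and ATF4 targets and 16% and 4% for NRF2 targets. For cholesterol synthesis they were 7.14% and 0%, and for fatty acid synthesis 4.17% and 8.33%. Amino acid supply and ATF4 targets had 5 falls and no rise among 36 (1 rise without knockdown replicate 2). SLC7A1, which carries arginine and lysine, read 190.2 and 186 CPM in the knockdown, 144 and 145 with the wild-type form, 143 and 146 with the mutant and 238 and 241 in the control. SLC38A2, a glutamine carrier, fell by 0.20 and 0.53, XPOT by 0.16 and 0.17 and WARS by 0.13 and 0.32. SLC7A1 was thus highest in the control and lowest in both rescues. NRF2 targets had 4 rises and 1 fall among 25, with 2 rises without knockdown replicate 1 and 0 without wild-type rescue replicate 1. The ferritin chains FTH1 (0.15 and 0.71) and FTL (0.21 and 0.30) and the peroxidase PRDX1 (0.15 and 0.17) were among those that rose. Cholesterol synthesis had 2 rises among 28 (1 without knockdown replicate 1 or wild-type rescue replicate 1). INSIG1, which retains the sterol sensor in the endoplasmic reticulum, read 78.6 and 70.9 CPM, 87.6 and 89.1 and 219 and 216, and FDFT1, squalene synthase, rose by 0.09 and 0.84. In both genes the step to the mutant rescue was far larger than the step to the wild-type rescue. Fatty acid synthesis had a rise in SREBF1 (0.10 and 0.50) and falls in ACLY (-0.14 and -0.16) and ACSL3 (-0.23 and -0.21) among 24. WARS lost its call without K2 or W1 and with GENCODE lengths, FTL, PRDX1 and FDFT1 without K1 or W1, and FTH1 without K2, W1 or W2.

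Protein quality control and traffic were mixed, where 4.75% of all tested genes rose and 5.94% fell. The shares that rose and fell were 15.6% and 18.8% for the unfolded protein response and 0% and 9.52% for the proteasome. For the lysosome they were 8.33% and 10.4%, and for traffic 6% and 10%. Of 32 genes of the unfolded protein response, 5 rose and 6 fell. SEL1L, EDEM1 and EDEM3, which act in the removal of misfolded proteins, fell by 0.33, 0.22 and 0.21 with the wild-type form and by 0.40, 0.23 and 0.31 with the mutant, and ATF6B rose by 0.22 and 0.40. Of 42 proteasome genes 4 fell and none rose. They were PSMD2 (-0.30 and -0.40), PSME3 (-0.22 and -0.71), PSMD1 (-0.16 and -0.29) and PSMD7 (-0.11 and -0.12). Of 48 lysosome genes 4 rose (1 without knockdown replicate 1 and 2 without wild-type rescue replicate 2) and 5 fell (3 without wild-type rescue replicate 2), with NPC2 (0.36 and 0.66) and CTSB (0.18 and 0.38) up and ATP6V1B2 (-0.16 and -0.33) down. Of 50 traffic genes 3 rose (1 without either knockdown library or wild-type rescue replicate 2) and 5 fell (3 without knockdown replicate 2 or wild-type rescue replicate 1), among them SFT2D2 (-1.07 and -1.09), SEC24B (-0.24 and -0.24) and COPA (-0.19 and -0.19) down and TMED3 (0.12 and 0.24) up. NPC2 lost its call without K1 or W1, PSMD7 without K1, W2 or M1 and TMED3 without K2. EDEM3, NPC2 and PSMD7 lost the call with DESeq2.

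Lists without a call in one direction were also counted by weaker changes that way. At an unadjusted p under 0.05 by edgeR's test in both fits, where 1183 of all genes rose and 1314 fell, no gene of glycolysis, ribosome biogenesis or the proteasome rose, and no immediate early gene, cytosolic ribosomal protein or nuclear-retained RNA fell. At that level 1 heat shock gene, 1 AKT and mTOR gene and 3 ATF4 targets rose, and 1 cholesterol gene fell. With DESeq2 none of these lists had a call in the direction where edgeR gave 0.

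Of 39 mitosis genes none rose or fell with both rescues by edgeR's test, and 4 rose and none fell at an unadjusted p under 0.05 (none by DESeq2). Against the knockdown, 7 were higher and 1 lower in the wild-type rescue, and 7 were higher and 15 lower in the mutant rescue. Of all tested genes 10.8% were higher and 13.2% lower in the wild-type rescue, and 25.9% and 25.8% in the mutant rescue. A single mitosis gene rose when either wild-type rescue library was left out. Of 49 replication genes 3 fell (6.12%, against 5.94% of all genes, and 1 without knockdown replicate 1 or wild-type rescue replicate 2), the helicase subunits MCM2 (-0.19 and -0.65), MCM6 (-0.21 and -0.44) and MCM7 (-0.10 and -0.40). MCM6 lost its call without K1 or W2, and MCM7 in 10 of 21 alternatives, any 1 knockdown, wild-type rescue or control library left out, no filter and a lowess span of 0.7 among them. Of 21 replication-dependent histone genes 3 fell (14.3%, and 0 without knockdown replicate 1 and 1 without wild-type rescue replicate 1 or mutant rescue replicate 2), HIST1H2BG (-0.37 and -0.29), HIST1H2AG (-0.45 and -0.54) and HIST2H2BF (-0.65 and -0.47). Their messages mostly lack a poly(A) tail, and the libraries were made with a messenger RNA kit. Of 25 genes of nonsense-mediated decay and its targets, GADD45B rose and SMG5 fell by 0.18 and 0.17, a call lost without knockdown replicate 1. Each was 4% of that list, against 4.75% and 5.94% of all tested genes.

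The mutant rescue moved farther than the wild-type rescue in 649 of the 726 genes that rose (89.4%) and in 717 of the 908 that fell (79%). The like share over all tested genes was not counted, so whether these shares are particular to the shared genes was not tested. Taken singly, the mutant rescue also changed more of all tested genes than the wild-type rescue (51.7% against 24%). The difference between the rescues was called in 459 of the rises (63.2%), 454 of them with the mutant farther and 5 with the wild-type farther. It was called in 499 of the falls (55%), 469 with the mutant farther and 30 with the wild-type farther. Over all tested genes it was called in 6307 (41.3%), with 21% higher and 20.3% lower in the mutant, and since this comparison shares libraries with the rule these shares are given as a description. Genes with the wild-type farther included CNOT1, PRPF8 and FRK among the falls, with mutant minus wild-type differences of 0.13, 0.06 and 0.36. Of the 14 named rises other than METTL3, 9 differed between the rescues, and of the 15 named falls 5 did.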

How the data were processed

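RNA sequencing counts of 8 LNCaP libraries in 4 groups of 2 were used. Per the submitters' processing notes, the tools were CASAVA, STAR 2.5.2b, featureCounts and DESeq2 and the build was hg19; parameters and the strand setting are not given in the sources used here. The authors deposited raw counts per gene, unnormalised, and a gene length in bases. Per the labels, the kit was stranded and for messenger RNA.

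Genes passing filterByExpr (minimum count 10, minimum total 15; 15289 of 27140) were fitted over all 8 libraries with edgeR 4.0.16 in R 4.3.3, TMM scaling and robust quasi-likelihood, each p two-sided with Benjamini-Hochberg adjustment over all tested genes. A second fit took a lowess curve (span 0.3) of each library over log2 gene length as an offset. Log2 values in the text are from the first fit unless said otherwise. Each standard error (SE) was derived from the test, as the absolute log2 change divided by the square root of its F statistic. With 2 libraries against 2, no exact permutation test could reach 0.05. Steps were tested on simulated data. Transcript features came from GENCODE 29, matched by symbol (14417 genes), and promoters from RefSeq.

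Named genes were METTL3, KLK3, the 15 largest rises and falls by the smaller of both changes (mean of at least 5 CPM, no overlap, no clone name) and up to 4 members of each list. Members and lists were chosen with earlier results of these data known. Alternatives were other scaling (DESeq2 1.42.0 size factors), the DESeq2 test, no filter, only the 6 libraries, a minimum change of 0.5, a mean of 10 CPM, lowess span 0.7, a replicate block and each library left out. Same-numbered libraries did not deviate together (correlations -0.0424 to 0.025), so the numbers were not used as pairs. Totals of 15200343 to 17893241 counts set the depth; the counts carry no molecular identifiers, so a molecule can be counted more than once. Some genes that the rule names are not reported here.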

Additional observations from a re-analysis of the deposited data

Results flagged for a closer look

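Among the named genes, 15 differed between the 2 rescues by edgeR's quasi-likelihood test of the mutant against the wild-type rescue (adjusted p under 0.05), although each had moved the same way with both. The mutant minus wild-type log2 difference among the rises was 1.18 for GADD45B (SE 0.0512), 1.16 for LAMB2P1 (SE 0.143), 1.05 for DRD4 (SE 0.138), 0.819 for PPP1R32 (SE 0.132) and 0.594 for PBX4 (SE 0.134). It was 0.486 for MSS51, 0.475 for HSD17B7P2, 0.428 for PLA2G2A and 0.394 for TBX6. Among the falls it was -1.13 for SLITRK6 (SE 0.148), -0.812 for SI (SE 0.128), -0.413 for IGF2R, -0.402 for POLR1A and -0.345 for MYCBP2. In these 14 genes the mutant rescue lay farther from the knockdown. For METTL3 itself the difference was 0.0728 (SE 0.0258), and edgeR's adjusted p of 0.0161 became 0.346 without wild-type rescue replicate 1.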

How the results depend on the processing

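The counts of 726 rises and 908 falls depended most on the demands made of a gene. With the DESeq2 Wald test they were 214 and 417, with a minimum log2 change of 0.5 31 and 49, and with the length trend kept 1280 and 1488. Leaving out 1 library gave 406 to 705 rises (406 without knockdown replicate 1, 444 without wild-type rescue replicate 2) and 646 to 869 falls. DESeq2 gave no adjusted p to 63 of the rises and 77 of the falls, and 449 and 415 others lost the call. Through every edgeR alternative, the demand for a minimum change and the mean of 10 CPM aside, 198 rises and 397 falls kept it. A replicate block gave 735 rises and 922 falls (720 and 901 shared). The numbers share no stated source, and same-numbered libraries did not deviate together.

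For single comparisons the minimum change left 84 higher and 108 lower genes in the wild-type rescue against the knockdown, 781 and 1080 in the mutant rescue, 292 and 442 in both together, and 327 and 601 between mutant and wild-type. DESeq2 left 581 and 1096 in the wild-type rescue, 2619 higher in the mutant rescue, 1888 and 2238 in both together, and 1921 and 1799 between the rescues. Leaving out 1 library gave 962 to 1708 higher and 1499 to 2012 lower genes in the wild-type rescue, 3294 to 4009 and 3326 to 3972 in the mutant rescue, 2327 to 3215 and 2615 to 3347 in both together, and 2545 to 3196 and 2414 to 3093 between the rescues. For METTL3 the difference between the rescues was 0.073 with DESeq2 (adjusted p = 0.2) and 0.039 to 0.11 with 1 library left out.

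Directions turned for 3 genes. PRRC2A with a lowess span of 0.7 read 0.068 in the wild-type rescue, 0.021 in the mutant and 0.044 in both. DVL1 with length and GC trends removed read -0.058 in the mutant rescue, -0.025 in both and -0.066 between the rescues, and RPL14 0.054 between the rescues. The causes were not tested. Genes of few counts are limited by depth.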

Other observations

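Rises and falls were spread unevenly over the chromosomes. On chromosome 19, 100 of 1073 tested genes rose with both rescues (9.32%) and 19 fell (1.77%), and on chromosome 16 58 rose (8.59%) and 28 fell (4.15%). On chromosome 4, 13 of 503 rose (2.58%) and 53 fell (10.5%), and on chromosome 13 6 of 245 rose (2.45%) and 25 fell (10.2%). The median GC content of tested transcripts was 58.8% on chromosome 19, 56.2% on 16, 42.4% on 4 and 43.2% on 13, and the part of GC content in this order was not tested.

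Families named by symbol were counted beside all tested genes, of which 4.75% rose and 5.94% fell. Of 502 tested ZNF zinc finger genes 16 rose (3.19%) and 16 fell (3.19%), with a median change over both rescues of 0.03. Of 192 LINC noncoding genes 5 rose (2.6%) and 4 fell (2.08%), and of 435 antisense genes 6 rose (1.38%) and 7 fell (1.61%). Of 18 small nucleolar RNA host genes none rose or fell by edgeR's test in both fits (1 rose at an unadjusted p under 0.05 and none with DESeq2), although their median was 0.17, or 0.06 with the length trend removed. Of 206 TMEM genes 9 rose (4.37%) and 4 fell (1.94%), and of 52 USP genes 2 rose (3.85%) and 4 fell (7.69%). Of 266 solute carriers 17 rose (6.39%) and 20 fell (7.52%), and of 53 KIAA genes 2 rose (3.77%) and 10 fell (18.9%).

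PGK1, the glycolytic kinase, is one of the 8 glycolytic falls and is named here after its values were seen. It stood at 1361 and 1369 CPM in the control, 343 and 358 in the knockdown, 329 and 326 in the wild-type rescue and 302 and 308 in the mutant rescue, so that the shared fall with METTL3 (-0.10 and -0.20) was small beside the distance of all 3 hairpin lines from the control.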
